A study of Mus musculus with 6 samples.

Results

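The transcripts of 63 desmosome, tight junction and gap junction genes were examined in primary mouse keratinocytes carrying an active form of the transcription factor NFATc1. The members were chosen by name, as the rows of the microarray whose annotation gives a single symbol of the desmoglein, desmocollin, plakophilin, claudin, connexin (Gja, Gjb and Gjc), zonula occludens (Tjp) or pannexin families, or Dsp, Jup, Ocln, Cdsn, Perp, Ppl or Evpl. They were 63 of the 19935 genes with such rows, and 62 of them were read from 1 row and Cldn10 from 2. By role they were 7 desmosomal cadherins, 6 desmosomal plaque proteins, 4 envelope and corneodesmosome proteins (Ppl, Evpl, Cdsn and Perp, a desmosomal membrane protein), 28 claudins, 3 occludin and zonula occludens proteins, 12 connexins and 3 pannexins. The claudins include Cldn34-ps, whose symbol marks a pseudogene. Dsg1a, which had no such row, was not analysed here.

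Total RNA of 6 cultures was measured, 1 array per culture. All were keratinocytes of wild-type CD1 mice in a growth medium low in calcium, and each had received a retrovirus. In 3 of them it carried caNFATc1, a human NFATc1 whose autoinhibitory domain was mutated so that it is always active, and the 3 vector control cultures received the empty MSCV virus. The virus drove the expression, so its level is that of a transgene, and no age or sex of the mice was used here. The comparison asks which junction transcripts differ when NFATc1 is active, and every difference below is a log2 value, caNFATc1 minus vector control, in which 1 is a 2-fold change. The deposited log2 values had been centred on the median of the 6 arrays in each row, so they show differences and no level of any gene.

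Desmosomes are buttons of adhesion in which desmogleins and desmocollins bind those of the neighbouring cell, while plakophilins and plakoglobin (Jup) tie them through desmoplakin (Dsp) to keratin filaments. Tight junctions seal the space between cells with claudins and occludin, which zonula occludens proteins join to actin. Gap junctions are channels of connexins that let small molecules pass from cell to cell. In the epidermis the composition of all of these changes as basal cells move up to the cornified layer, and desmosomal cadherins need extracellular calcium to bind. In RNA from whole cultures, fewer cells that make a transcript and less of it per cell cannot be told apart.

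Over all members the change was small and mixed, and the clearest was a rise of Gja1, the connexin gene most widely used in the body. With the replicate number as a block, limma's test adjusted over all 19935 genes (Benjamini-Hochberg, adjusted p under 0.05) called 3 of the 63 members. Gja1 rose, and Dsc2, a desmocollin, and Pkp4, a plakophilin, fell. That is 4.76% of the members, against 6.11% of all genes, so the members were not called more often than other genes. By direction, 3.73% of all genes were called higher and 2.38% lower. Without the block limma called 0 of the 63, against 0.216% of all genes, and placed 4 (6.35%) at an unadjusted p under 0.05, against 12.7% of all genes, so that each of the 3 calls rests on comparing same-numbered cultures. The median difference was -0.06 for the members and -0.01 for all genes. A negative difference was seen for 44 members, or 69.8%, against 52.6% of all genes, and a positive one for 19. At an unadjusted p under 0.05 limma's blocked fit placed 20 members, or 31.7%, against 21.5% of all genes. In pairs 1, 2 and 3 the median of the members was -0.14, -0.01 and -0.05, against -0.06, 0.02 and 0.01 for all genes. A difference of over 0.5 in either direction was seen for 8 members, or 12.7%, against 5.66% of all genes.

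**Figure D1:**
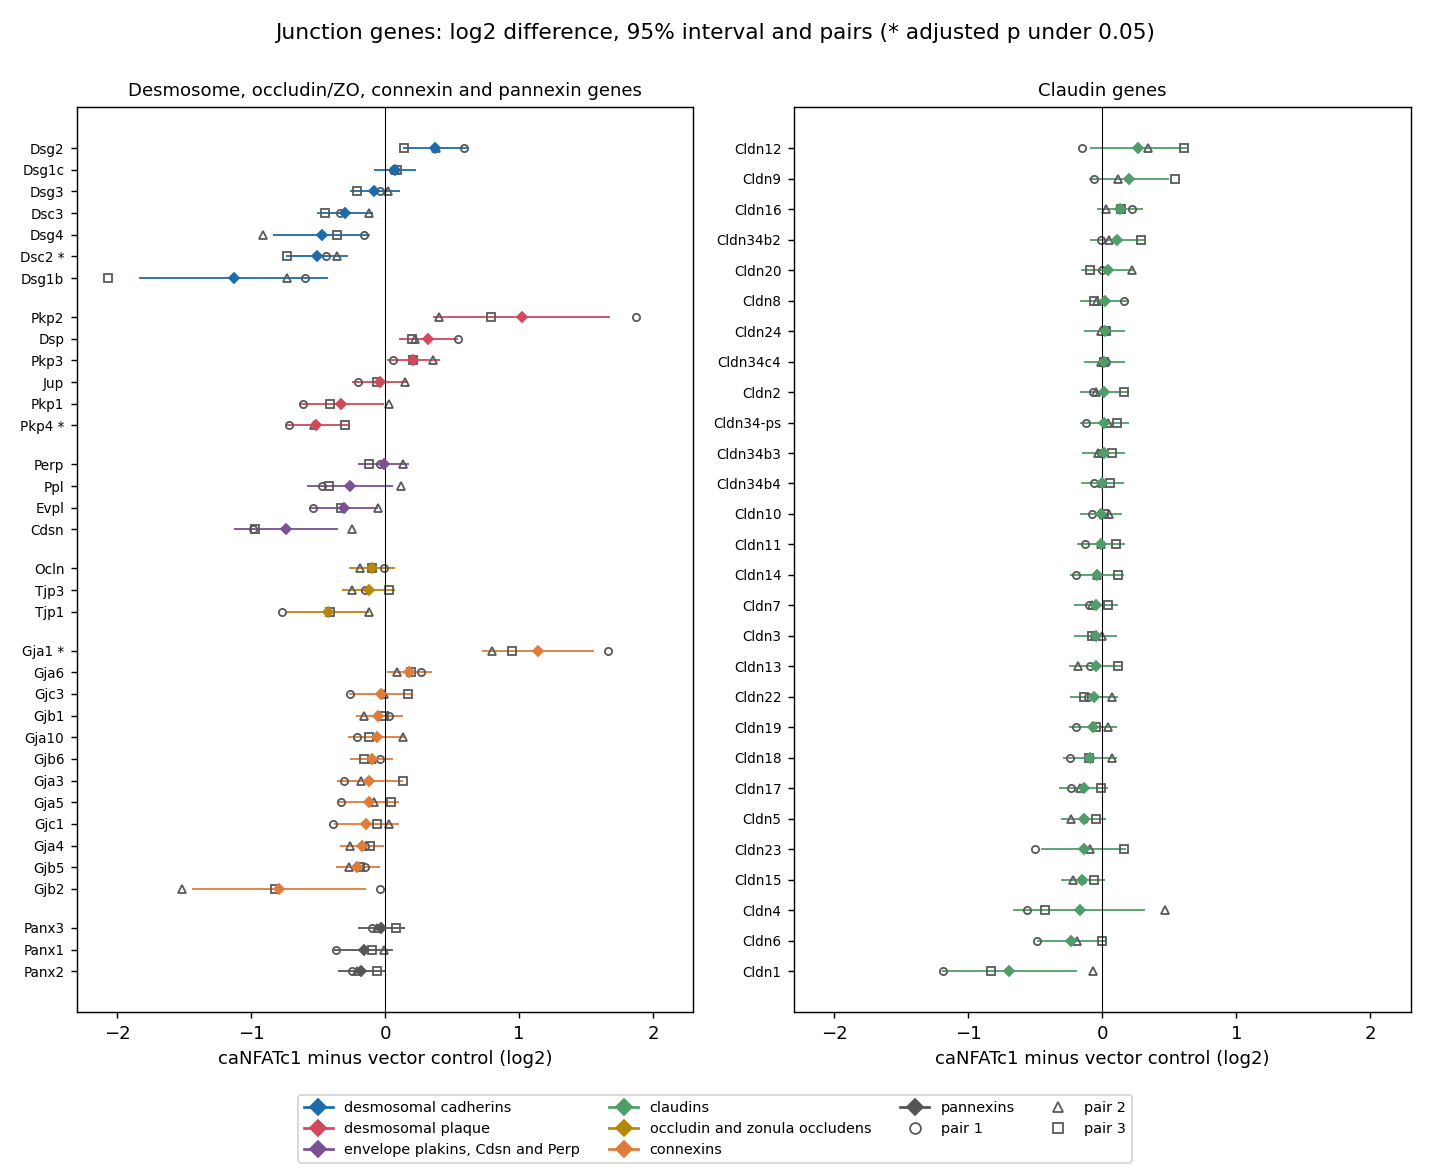
Log2 difference, caNFATc1 minus vector control, for each of the 63 members on the horizontal axis. Diamonds are the mean of 3 pairs with the 95% interval of the blocked fit, open circles, triangles and squares are pairs 1, 2 and 3, and an asterisk marks Gja1, Dsc2 and Pkp4, the members past the test. Most claudins lie close to 0, while Gja1 and Pkp2 lie farthest to the right and Dsg1b farthest to the left.

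Of the 7 desmosomal cadherins 1, Dsc2, fell, and Dsg1b, whose difference was larger, did not pass. Dsc2, the desmocollin made most widely across epithelia, had log2 values of 1.24, -0.01 and 0.01 in vector control replicates 1, 2 and 3, and 0.80, -0.37 and -0.72 in the same-numbered caNFATc1 cultures. Each caNFATc1 culture lay below its partner, but replicate 1 was high in both groups, so the groups overlapped. Dsc2 fell by 0.51 ± 0.09 on the log2 scale (SE, n = 3 pairs, limma adjusted p = 0.0379 with the block and 0.768 without), a 1.42-fold decrease. The adjusted p was 0.0757, 0.0570 and 0.0798 when pair 1, 2 or 3 was left out, so the call needs all 3 pairs. Dsc3, the desmocollin of basal keratinocytes, differed by -0.30 ± 0.08 (adjusted p = 0.104), with pair differences of -0.34, -0.12 and -0.45.

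Dsg1b, which encodes a form of desmoglein 1, the desmoglein of the upper epidermis, had the largest negative difference of the members. Its values were -0.26, 1.00 and 1.51 in the vector controls and -0.86, 0.26 and -0.56 with caNFATc1. Every pair was negative, pair 3 far more than the others, and the arrays of the groups overlapped. The difference was -1.13 ± 0.28 (limma adjusted p = 0.0812). Without pair 3 it was smaller, -0.67, and passed (adjusted p = 0.0118). Without pair 1 or pair 2 Dsg1b did not pass (adjusted p = 0.0900 and 0.0889). The Dsg1 genes are so alike in sequence that a probe may read several of them, and the row for Dsg1c differed by 0.07 ± 0.06 (adjusted p = 0.588).

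Dsg2, the desmoglein of simple epithelia and of basal cells, differed the other way. Its values were -0.61, -0.01 and 0.01 in the vector controls and -0.02, 0.38 and 0.15 with caNFATc1, so each pair was positive while the groups overlapped at their edges. The difference was 0.37 ± 0.10 (adjusted p = 0.0921, and 0.0466 without pair 3). Without pair 1 or pair 2 Dsg2 did not pass (adjusted p = 0.186 and 0.249). Dsg3, the desmoglein of basal and spinous cells, differed by -0.08 ± 0.07 with a 95% interval from -0.26 to 0.11. Dsg4, best known from hair, differed by -0.47 ± 0.15 (adjusted p = 0.130) and was named after its values were seen. In the GRCm38.p6 gene table Dsg1b, Dsg4, Dsg3 and Dsg2 follow one another with no other protein-coding gene between them, and in that order their differences were -1.13, -0.47, -0.08 and 0.37. Dsc3 and Dsc2 are likewise neighbours, and both were negative. The run of 4 desmogleins leaves out Dsg1c, which differed by 0.07, and Dsg1a, which had no row of its own. No trend by position was tested. Of the 7 cadherins 6 had the same sign in all 3 pairs (2 positive, 4 negative). That is 85.7%, against 44.4% of all 63 members and 42.9% of all genes.

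Of the 6 desmosomal plaque genes 1, Pkp4, fell, and the other plakophilins did not pass. Pkp4, a plakophilin found at desmosomes and at adherens junctions, had values of -0.05, 0.58 and 0.08 in the vector controls and -0.76, 0.05 and -0.22 with caNFATc1. The pair differences were -0.72, -0.53 and -0.30, and the groups overlapped because replicate 2 was high in both. Pkp4 fell by 0.52 ± 0.09 (limma adjusted p = 0.0394 with the block, 0.487 without), a 1.43-fold decrease. The adjusted p was 0.0799 and 0.112 without pairs 1 and 2, and 0.0176 without pair 3.

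Pkp2, the plakophilin of simple epithelia, heart and basal keratinocytes, had the second largest positive difference of the members. Its values were -0.80, -0.22 and -0.19 in the vector controls and 1.07, 0.19 and 0.60 with caNFATc1, with no overlap between the groups. The difference was 1.02 ± 0.27, or 2.03-fold, and did not pass (adjusted p = 0.0906 with the block, 0.202 without). The pairs differed by 1.87, 0.40 and 0.79, so its size depended on the pair. It was 0.60 without pair 1 and 1.33 without pair 2, where it passed (adjusted p = 0.0445). Without pair 1 or pair 3 Pkp2 did not pass (adjusted p = 0.0655 and 0.0653).

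Pkp1, the plakophilin of the upper layers, differed by -0.33 ± 0.13, and Pkp3, present in all layers, by 0.21 ± 0.08 (adjusted p = 0.216 and 0.202). Neither passed. Jup, plakoglobin, which joins cadherins to the plaque, differed by -0.04 ± 0.09, with a 95% interval from -0.25 to 0.17. Dsp, desmoplakin, differed by 0.32 ± 0.09 (adjusted p = 0.108) and was positive in each pair, by 0.54, 0.22 and 0.20. Its arrays differed far more between replicate numbers, as described below.

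**Figure D2:**
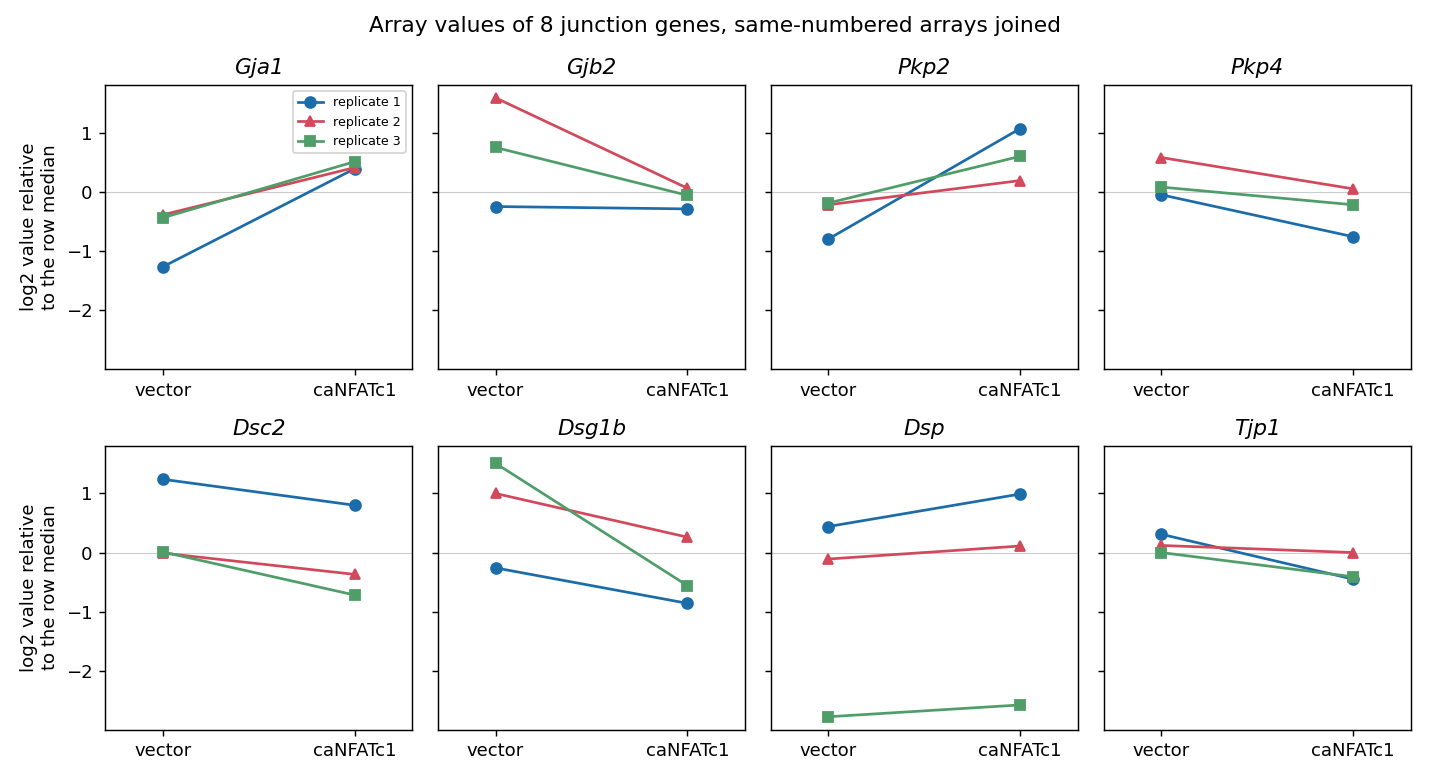
Log2 value relative to the row median on the vertical axis, for 8 members in the vector control and caNFATc1 arrays, with lines joining arrays of the same replicate number. All 3 lines of Gja1 rise without overlap of the groups, those of Dsc2 and Pkp4 slope down from different heights, and Dsp lies near -2.78 and -2.58 in replicate 3 alone.

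The envelope and corneodesmosome group had negative differences in all 4 members, none of which passed in limma's fits (2 at an unadjusted p under 0.05 with the block and 0 without). Cdsn, corneodesmosin, a glue of cornified cells, came closest. Its values were 0.88, 0.36 and -0.98 in the vector controls and -0.11, 0.11 and -1.95 with caNFATc1, so each pair was negative while the groups overlapped widely. The difference was -0.74 ± 0.16 (limma adjusted p = 0.0549). Without pair 2, the pair with the smallest change (-0.25), it was -0.98 and passed (adjusted p = 0.00813). Without pair 1 or pair 3 Cdsn did not pass (adjusted p = 0.146 and 0.0871). Evpl and Ppl, the plakins that line the cornified envelope, differed by -0.31 ± 0.10 and -0.26 ± 0.13 (adjusted p = 0.160 and 0.326). Perp, a desmosomal protein controlled by p63, differed by -0.01 ± 0.08, with a 95% interval from -0.20 to 0.18.

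None of the 28 claudins passed with or without the block. At an unadjusted p under 0.05 limma placed 1 with the block and 0 without. A difference of less than 0.25 in size was seen for 26 of the claudins, or 92.9%, against 82.9% of all genes. The other 2 were Cldn12, described below, and Cldn1, the claudin on which the skin's water barrier depends and the one with the largest difference. The values of Cldn1 were -0.19, 0.33 and 0.19 in the vector controls and -1.38, 0.26 and -0.64 with caNFATc1. Replicates 1 and 3 were low with caNFATc1, whereas in replicate 2 the arrays differed by -0.07, so the groups overlapped. The difference was -0.70 ± 0.20 (limma adjusted p = 0.116), and without pair 2 it was -1.01 and passed (0.0136). Without pair 1 or pair 3 Cldn1 did not pass (adjusted p = 0.267 and 0.191).

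Cldn4, a sealing claudin of the upper epidermis, had no common direction, with -0.56, 0.47 and -0.43 in the 3 pairs. Cldn7, present in many epithelia, differed by -0.05 ± 0.07, with a 95% interval from -0.21 to 0.12. The largest positive claudin differences were those of Cldn12 (0.27 ± 0.14) and Cldn9 (0.20 ± 0.12), and the second largest negative one was that of Cldn6 (-0.23 ± 0.10), with adjusted p = 0.372, 0.437 and 0.294. Cldn17 and Cldn5, named after their values were seen, differed by -0.14 each with no overlap between groups. The nearest arrays of the groups lay at 0.00 and -0.00 for Cldn17 and at 0.01 and -0.01 for Cldn5. Many claudins are made in other organs, and the centred values do not tell an unexpressed gene from a constant one.

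Of the 3 tight junction genes beside the claudins none passed in limma's fits, with 1 at an unadjusted p under 0.05 in each. Tjp1, which encodes ZO-1, the scaffold that links claudins to actin, had values of 0.31, 0.12 and 0.00 in the vector controls, and its pairs differed by -0.77, -0.12 and -0.41. The groups did not overlap but all but touched, with a lowest vector control of 0.00 and a highest caNFATc1 array of -0.00. The difference was -0.43 ± 0.13 (limma adjusted p = 0.118 with the block, 0.303 without). Its relative Tjp3 differed by -0.12 ± 0.08. Ocln, occludin, differed by -0.10 ± 0.07, with a 95% interval from -0.27 to 0.07.

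Among the connexins Gja1 stood alone as a gene that rose. Its log2 values were -1.27, -0.39 and -0.44 in vector control replicates 1, 2 and 3 and 0.39, 0.41 and 0.51 with caNFATc1. All 3 caNFATc1 arrays lay close together and above every vector control array, and the vector control of replicate 1 was the lowest. Gja1 rose by 1.14 ± 0.17 (SE, n = 3 pairs, limma adjusted p = 0.0256 with the block, 0.136 without), which is 2.20-fold, and by 1.66, 0.80 and 0.95 in the pairs. It passed without any 1 pair, at 0.87, 1.31 and 1.23 without pair 1, 2 and 3 (adjusted p = 0.0157, 0.0186 and 0.00992). With all rows of the array tested singly, which adjusts over 28815 tests, its adjusted p was 0.0556.

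The start-site regions of the called members are shown to let a reader see what lies there, as a description. The RefSeq table of GRCm38.p6 holds 250 bases before to 50 after the start for 41 of the 63 members, among them Gja1 (chr10:56377050-56377349, plus strand) and both start sites of Pkp4 (chr2:59160600-59160899 and chr2:59161619-59161918, plus strand), and not Dsc2. Capitals mark GGAAA, the core of the NFAT site, and TGANTCA, the site of the AP-1 factors that bind DNA with NFAT, each searched on both strands, and in these 3 regions no marked match touches another.
Gja1: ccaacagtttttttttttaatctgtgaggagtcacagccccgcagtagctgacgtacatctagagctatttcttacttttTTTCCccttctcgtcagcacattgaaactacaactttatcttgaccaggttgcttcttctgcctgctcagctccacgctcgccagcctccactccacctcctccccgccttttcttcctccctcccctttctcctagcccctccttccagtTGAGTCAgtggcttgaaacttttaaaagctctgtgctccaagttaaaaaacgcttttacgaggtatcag
Pkp4 start 1: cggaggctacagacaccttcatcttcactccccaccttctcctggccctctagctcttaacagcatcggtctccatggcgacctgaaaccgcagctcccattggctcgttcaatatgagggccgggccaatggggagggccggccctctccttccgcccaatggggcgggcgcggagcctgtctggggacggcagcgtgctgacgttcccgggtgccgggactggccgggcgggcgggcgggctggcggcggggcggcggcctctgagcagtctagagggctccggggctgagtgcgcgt
Pkp4 start 2: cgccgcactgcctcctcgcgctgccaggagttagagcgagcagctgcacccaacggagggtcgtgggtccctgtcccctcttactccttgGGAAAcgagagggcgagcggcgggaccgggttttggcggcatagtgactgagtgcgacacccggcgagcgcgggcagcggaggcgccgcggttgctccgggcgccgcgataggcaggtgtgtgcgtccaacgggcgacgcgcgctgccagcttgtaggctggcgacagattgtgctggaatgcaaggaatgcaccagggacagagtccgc
The Gja1 region held 1 match to GGAAA, read as TTTCC on the printed strand, and 1 to TGANTCA, and the second Pkp4 region held 1 to GGAAA. The first Pkp4 region held no match to either. GGAAA is common, matching in 61.3% of the 32851 regions in the table and in 63.2% of the 57 regions of the members. TGANTCA matched in 7.81% of all regions and in 8.77% of those of the members.

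Gjb2, a connexin of activated and palmoplantar epidermis whose mutations cause deafness and skin disease, had the largest negative difference of the connexins. Its values were -0.25, 1.59 and 0.75 in the vector controls and -0.29, 0.06 and -0.06 with caNFATc1. The caNFATc1 arrays were alike, whereas the vector controls were spread, and in replicate 1 the arrays lay close together (-0.04). The difference was -0.79 ± 0.26 and did not pass (limma adjusted p = 0.153). Without pair 1 it was -1.17 and passed (adjusted p = 0.0431). Without pair 2 or pair 3 it was -0.43 or -0.78 and did not pass (adjusted p = 0.339 and 0.203).

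Gjb6, which forms channels together with Gjb2 and is its neighbour in the genome, differed by -0.10 ± 0.07, with a 95% interval from -0.26 to 0.06. Gjb5, another epidermal connexin, was negative in each pair, at -0.15, -0.27 and -0.19 (adjusted p = 0.139). Gja6 differed by 0.18 ± 0.07 and had no overlap between groups (adjusted p = 0.207). Gja4, a connexin of vessel walls, named after its values were seen, differed by -0.17 ± 0.07 with no overlap (0.216). The pannexins, relatives of connexins in shape that form channels to the outside of the cell, were called in no case by limma (1 at an unadjusted p under 0.05 with the block and 0 without). Panx1, which releases ATP, differed by -0.16 ± 0.09, Panx2 by -0.18 ± 0.07 and Panx3 by -0.03 ± 0.07.

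Over all 63 members the groups did not overlap for 3 that were higher with caNFATc1 (Gja1, Gja6 and Pkp2), which is 4.76% against 9.64% of all genes. They did not overlap for 4 that were lower (Cldn5, Cldn17, Gja4 and Tjp1), or 6.35% against 9.09%. The 3 pairs had the same sign for 8 higher members, or 12.7% against 21.6% of all genes, and for 20 lower members, or 31.7% against 21.3%.

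Several members also differed widely between replicate numbers. For each gene the mean of the same-numbered arrays was taken, and its range over replicates 1, 2 and 3 was larger than the difference between groups for 50 members, or 79.4%. It was larger for 70.9% of all genes too, and a range over 3 means of 2 arrays tends to exceed a difference of 2 means of 3 arrays, so that count is no result about the members. The range exceeded 1, a 2-fold difference between the means of replicate numbers, for 10 members, or 15.9%, against 2.47% of all genes. Dsp had the widest range, 3.39. Its values in replicates 1, 2 and 3 were 0.44, -0.11 and -2.78 with the vector and 0.99, 0.11 and -2.58 with caNFATc1, so desmoplakin signal was low in both cultures of replicate 3. Cdsn, with a range of 1.86, was also lowest in both cultures of replicate 3.

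Cldn4, with a range of 1.73, was lowest there as well, at -1.06 with the vector and -1.50 with caNFATc1. Ocln had a range of 1.36, at 0.89, 0.09 and -0.42 with the vector and 0.88, -0.09 and -0.52 with caNFATc1, so it hardly differed between partners. Dsc2 had a range of 1.38 and was high in replicate 1, whereas Ppl had 1.17 and was low there. Dsg1b, Gjb2, Gjc1 and Cldn1 ranged between 1.08 and 1.19. Of the 8 members that differed by over 0.5, Gja1 and Pkp2 varied least between replicate numbers, with ranges of 0.48 and 0.22.

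**Figure D3:**
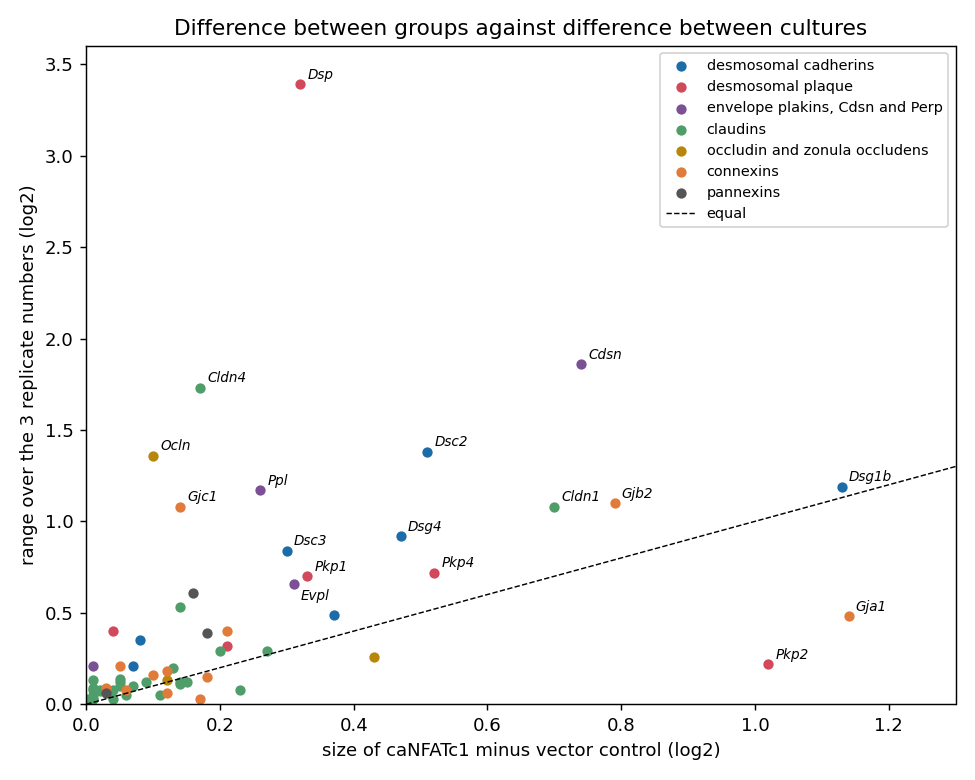
Each point is a member, with the size of its log2 difference between groups on the horizontal axis and the log2 range of its same-numbered means over replicates 1 to 3 on the vertical axis. The dashed line marks equality, and 50 of 63 points (79.4%, against 70.9% of all genes) lie above it, Dsp highest at 3.39, whereas Gja1 and Pkp2 lie far below it on the right.

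Rcan1, a known target of NFAT, was 10.4-fold higher with caNFATc1 (limma adjusted p = 6.85e-04), in the direction of the labels, whereas the mouse Nfatc1 row (0.04 ± 0.07) need not read a human transgene and checks nothing. Replicate 1 stood apart in genes that differ by sex. Both of its arrays were low in Xist, the RNA that silences an X chromosome in females, with a smallest gap of 5.97 to the other replicates. They were high in Eif2s3y from the Y chromosome, with a smallest gap of 2.99. Its vector control and caNFATc1 arrays were alike in Xist (-6.00 and -6.05). They were less alike in the Y-linked genes Eif2s3y (3.00 and 3.77), Uty (1.11 and 2.49) and Kdm5d (1.36 and 1.67). Vim, a fibroblast marker that cultured keratinocytes can also make, was lower in replicate 1 too, at -2.98 with the vector and -2.92 with caNFATc1. The other 4 arrays lay between -0.03 and 0.79 in Vim. The part of these in the members' values was not tested. Without replicate 1 limma called Gja1 and Gjb2, without replicate 2 Gja1, Pkp2, Cdsn and Cldn1, and without replicate 3 Gja1, Dsg2, Dsg1b and Pkp4.

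Further genes linked to these structures were taken from 5 lists, which hold transcription regulators and proteases as well as junction components. As with the members, limma called 0 of them without the block. At an unadjusted p under 0.05 that fit placed 14 (13.3%), against 12.7% of all genes. With the block, 9 of 105 listed genes rose and 5 fell, with a median difference of 0.02. Those 14 called genes are 13.3% of the lists, against 6.11% of all genes (3.73% higher and 2.38% lower). Called were 5 of 23 transcription regulators, 3 of 17 proteases and inhibitors and 2 of 14 further connexins and desmosome-linked genes. Of the adherens junction genes 1 of 20 was called, and of the tight junction partners and polarity genes 3 of 32. The pooled share is thus not that of junction components alone. The lists were also chosen with earlier results of these data known, so the share is a description and no test. Of 20 adherens junction genes Pkd1 rose, by 0.87 ± 0.07 (limma adjusted p = 0.00639). Of 32 tight junction partners and polarity genes 3 rose. These were Amotl1, an angiomotin that binds actin (0.71 ± 0.09, 0.0167), the adhesion molecule gene Esam (0.43 ± 0.07, 0.0318) and Pard3, a polarity scaffold (0.43 ± 0.08, 0.0378).

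Of 17 proteases and inhibitors that act on corneodesmosomes or their neighbours, the inhibitor gene Spink6 rose by 0.48 ± 0.09 (limma adjusted p = 0.0451), and the protease genes Tmprss13 and Asprv1 fell by 0.78 ± 0.12 and 0.86 ± 0.16 (0.0282 and 0.0406). Of 23 transcription regulators of junction genes, Tfap2a, Zeb2 and Trp63, the gene of p63, rose by 0.66 ± 0.07, 0.72 ± 0.11 and 0.42 ± 0.08 (adjusted p = 0.00983, 0.0293 and 0.0444). Zfp750 and Grhl3, regulators of late epidermal differentiation, fell by 1.23 ± 0.16 and 0.96 ± 0.13 (0.0169 and 0.0190). Of 14 further connexins and desmosome-linked genes, the cytolinker gene Plec rose by 0.40 ± 0.07 and Pof1b, which encodes an actin-binding protein of epithelial junctions, fell by 0.57 ± 0.09 (0.0347 and 0.0282).

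Of 6 keratinocyte markers Trp63 rose, as given above, and 5 did not pass. The basal keratin genes Krt5, Krt14 and Krt15 differed by 0.03 ± 0.06, -0.02 ± 0.06 and -0.58 ± 0.18 (limma adjusted p = 0.857, 0.934 and 0.132), and Col17a1 and Itgb4 by 0.17 ± 0.07 and -0.05 ± 0.10. The mean of the 6 ran from -0.25 to 0.15 in the vector controls and from -0.14 to 0.05 with caNFATc1, and the labelled cell type could not be checked by level in centred values. Fibroblasts also make Gja1. Of 8 fibroblast markers Col3a1 rose by 1.20 ± 0.19 (limma adjusted p = 0.0296), and Pdgfra differed by 0.83 ± 0.20 (0.0778). Dcn and Lum differed by 0.08 and -0.01, and Col1a1, Vim, Col1a2 and Thy1 by 0.48, 0.21, 0.05 and -0.14. The mean of the 8 was -0.37, -0.07 and -0.09 in vector control replicates 1, 2 and 3, and -0.26, 0.10 and 0.65 with caNFATc1. Their part in the rise of Gja1 was not tested. None of 7 melanocyte, 6 endothelial, 7 leukocyte and Langerhans, and 3 Schwann and Merkel markers passed in either fit, with 1, in the Schwann and Merkel list, at an unadjusted p under 0.05 with the block and 0 without.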

How the data were processed

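RNA of 3 caNFATc1 and 3 vector control cultures was measured on single-colour arrays. The deposited log2 table has 28815 rows. Per the submitters' processing notes the authors used RMA and the mouse build mm8, and other steps were not stated. Every row's median over the arrays was 0, so the values carry no level, the base of 2 is taken from RMA, and no filter on dim rows could be applied. Their number, 6, limits the precision.

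Rows with 1 symbol in the platform annotation (21780 rows, while 1605 had several and 5430 none) were averaged per gene, giving 19935 genes. Symbols were checked by Entrez number against the GRCm38.p6 table, in which 91 rows were not found and no symbol changed. Limma (version 3.58.1, R 4.3.3, lmFit, eBayes, 2-sided) was fitted on all genes with group and replicate number as terms, because the comparison was set out as paired by replicate number when the members were chosen by name, with the fit without the block as an alternative. The script was tested on simulated data. SE is limma's moderated standard error.

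The series calls the replicates biological and does not say that numbers share a culture. After subtracting each group's mean, arrays with the same number had correlations over genes of 0.71, 0.61 and 0.57, against -0.60 to 0.18 for other pairings. A group's deviations sum to 0 for each gene, so high values for same numbers push the other pairings lower, and the contrast overstates the match. Every pair was treated as matched because the comparison was set out so. A p-value here covers the spread of these cultures alone.

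The members and lists were chosen with earlier results of these data known. Named members are those past the test, the 2 largest differences of each sign in each role, and fixed keratinocyte members, among which Dsg1a has no row of its own. Ppl, Panx3, Gjc1 and Cldn10 were named after their values were seen, as were the members so marked in the text.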

Additional observations from a re-analysis of the deposited data

Results flagged for a closer look

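Rows whose annotation gives several symbols were outside the comparison. Of the 5 such rows that name a member, 4 had all 3 caNFATc1 arrays above all 3 vector control arrays. Of these 4, 3 share 1 annotation and had similar values on each array, so they are not separate results. No overlap in this direction was seen for 9.64% of all genes, a share taken over rows with 1 symbol, averaged per gene. The 3 rows annotated to Gm2411, Cldn34c4 and Cldn34c1 together differed by 0.92, 0.88 and 0.84 (limma adjusted p = 0.0613, 0.0535 and 0.0642 with the replicate block, over 28815 rows), while the row of Cldn34c4 alone differed by 0.01. The row annotated to both Dzip1 and Cldn10 differed by 0.44 (0.0951), while Cldn10 by its own rows differed by -0.01. The cause of these differences was not tested.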

How the results depend on the processing

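The paired design decides the counts. With no replicate block limma called 0 members higher and 0 lower (4 at an unadjusted p under 0.05), against 1 and 2 with it. For all genes the counts were 41 and 2, against 744 and 475 with the block. For the listed genes linked to junctions they were 0 and 0, against 9 and 5 with the block. Leaving out 1 pair in turn gave 1 to 2 members higher and 1 to 2 lower. Of all genes 509 to 605 were then higher and 202 to 481 lower. Of the listed genes 4 to 5 were higher and 3 to 6 lower. Quantile normalization gave 2 members higher (Pkp2 added), and 5 and 1 of the listed genes. With rows tested singly, which adjusts over more tests, 0 members were higher and 0 lower (19 at an unadjusted p under 0.05). The counts were 374 and 139 for all genes, and 3 and 2 for the listed genes. Centring the columns, taking the median of rows and robust eBayes kept Gja1, Dsc2 and Pkp4 as the members called. The median difference of the members lay between -0.09 and -0.02 in all settings where it was computed. The filter on dim rows was not run, as centred values have no level. The number of arrays limits what can be called, and a member that missed the threshold is not shown to be the same in both groups.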

Other observations

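A row annotated to Dsg1b, Dsg1c and Dsg1a together had values of -0.09, 1.01 and 1.46 in the vector controls and -1.74, 0.09 and -0.76 with caNFATc1. The pairs differed by -1.65, -0.92 and -2.21, and the groups overlapped. The difference was -1.59 ± 0.24 (limma adjusted p = 0.0538 with the replicate block over all rows, 0.364 without). The row of Dsg1b alone, in the same direction, differed by -1.13 and that of Dsg1c by 0.07, so the 3 rows of desmoglein 1 genes did not give one value.

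Over the 63 members, after subtracting each group's mean, the correlation between the arrays of replicates 1, 2 and 3 was 0.79, 0.57 and 0.87, and the other pairings lay between -0.76 and -0.17. The genes are not independent replicates, so these values are a description.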
